A study of Mus musculus with 12 samples.

Results

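The R-spondin receptors Lgr4, Lgr5 and Lgr6 and 7 further genes linked to Wnt and beta-catenin signalling (Axin2, Nkd1, Nkd2, Rnf43, Lef1, Tcf7 and Procr) were followed across sorted mammary epithelial cells of ovariectomized and control mice. All array probes whose annotated gene symbol is one of these 10 names were taken. That gave 19 probes for 9 genes, out of 19057 genes with a probe on the array. The annotation used here lists no probe under Tcf7. A filter on detection, described below, left 9 probes for 7 of the genes (Lgr5, Lgr6, Axin2, Nkd1, Nkd2, Rnf43 and Procr), out of 11292 genes in all.

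In canonical Wnt signalling, Wnt ligands bind Frizzled receptors and Lrp co-receptors, the destruction complex stops marking beta-catenin for degradation, and beta-catenin then activates genes together with TCF/LEF factors. R-spondins bind the Lgr receptors and remove the ubiquitin ligases Rnf43 and Znrf3 from the cell surface, which leaves more Frizzled there. Several genes that beta-catenin activates, such as Axin2, Nkd1 and Rnf43, act back to dampen the pathway. In the mouse mammary gland, basal (myoepithelial) cells are the main cells that respond to Wnt signals, and ovarian hormones act on luminal cells to raise Wnt4 and Rspo1, signals that reach the basal layer.

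The measurements came from female FVB/NJ mice, and the design asks how loss of the ovaries alters expression in 2 epithelial fractions. The 4 groups were MaSC-enriched cells of ovx mice, MaSC-enriched cells of control mice, luminal cells of ovx mice and luminal cells of control mice, with 2 mouse pools each. The ovx pools held 6 mice each, ovariectomized at 8 weeks of age and taken 4 weeks later. Number, age and any sham surgery of the control mice are not stated in the sources used here. Cells without surface CD45, CD31 and TER119 were sorted on CD24 and CD29, into CD29-high (MaSC-enriched, where MaSC stands for mammary stem cell) and CD29-low (luminal) CD24-positive cells, at over 90% purity. Only a part of the MaSC-enriched gate is stem cells, since it takes in the basal layer as a whole. RNA was hybridised to Illumina BeadChips, 12 arrays for 8 RNA samples. Values below are log2 intensities after background correction and quantile normalization, and each RNA sample has 1 value. Levels of different probes are not comparable with each other.

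The labelled fractions differed in their markers, but each also held signal of markers of the other fraction. Krt5, a basal keratin, lay at 11.91 to 13.19 in the 4 MaSC-enriched samples and at 5.04 to 6.58 in the 4 luminal samples, and Trp63, a basal transcription factor, at 13.08 to 13.56 against 5.07 to 6.56. The luminal keratin Krt8 was high everywhere (13.76 to 14.69 in MaSC-enriched and 14.59 to 15.05 in luminal samples). The basal marker Acta2 lay at 14.63 to 14.71 in MaSC-enriched and 11.54 to 12.36 in luminal samples. Of the luminal markers, Krt18 lay at 11.55 to 13.98 in MaSC-enriched and 14.63 to 14.91 in luminal samples, and Elf5 at 8.48 to 11.84 and 12.50 to 13.22. Pecam1, which encodes the CD31 antigen used to remove endothelial cells, was detected in every sample (9.58 to 11.62 in MaSC-enriched and 7.58 to 8.69 in luminal samples). The array of control MaSC-enriched replicate 1 stood apart: 12994 of its probes were detected and its lowest detected signal was 7.29, against lowest signals of 5.73 to 5.93 on the other arrays. The control replicate 2 pool stood apart in proliferation genes, whose mean log2 level was 10.73 in its MaSC-enriched and 11.07 in its luminal sample, against 6.86 to 8.20 in the other 6 samples.

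The clearest result was the higher level of Lgr5 and Nkd1 in MaSC-enriched than in luminal cells, in ovx mice and in control mice. The same held for Nkd2 in control mice, while its difference in ovx mice was less secure. In ovx mice 4 of 9 member probes passed, for Lgr5, Axin2, Nkd1 and Nkd2, all higher in MaSC-enriched cells, where 12.4% of all 20995 probes passed in either direction and 7.32% higher. In control mice 3 of 9 passed, for Lgr5, Nkd1 and Nkd2, again all higher in MaSC-enriched cells, where 10.1% of all probes passed in either direction and 5.56% higher. A probe passed with an adjusted p under 0.05 in limma's moderated test after Benjamini-Hochberg adjustment over all 20995 probes. Nkd2 no longer passed in ovx mice whichever ovx sample was left out, nor without background correction or without the detection filter. The brighter Nkd1 probe was detected in no luminal sample and so entered the test through its MaSC-enriched samples alone, which makes the counts a description of the probes that could be measured. Over the 7 member genes the median log2 difference between fractions was 2.42 in ovx mice and 2.32 in control mice, beside -0.08 and -0.12 over all 11292 genes, and the median over all probes was -0.11 and -0.16. The MaSC-enriched and luminal samples lay apart without overlap for 8 of 9 probes in ovx mice, where 63.9% of all probes did, and for 9 of 9 in control mice, where 51.5% did. All of these were higher in MaSC-enriched cells except the dimmer Nkd1 probe in control mice.

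No member probe passed between ovx and control mice. In MaSC-enriched cells 0 of 9 passed, where 0.0762% of all probes did, and in luminal cells 0 of 9, where 0.157% did. By unadjusted p under 0.05 in the same limma fit, 5 of the 9 probes lay past that level in MaSC-enriched cells and 2 in luminal cells, against 1811 and 1511 of all 20995 probes. The 5 were Lgr5, both Lgr6 probes, Nkd2 and the dimmer Nkd1 probe, which ran against the brighter Nkd1 probe. Members were chosen with earlier results of these data known, so these counts are a description. Samples of ovx and control mice lay apart without overlap for 6 of 9 probes in MaSC-enriched cells (32.3% of all probes) and for 5 of 9 in luminal cells (51.5%). Median log2 differences over the 7 genes were -0.59 in MaSC-enriched and -0.03 in luminal cells, beside 0.07 and 0.02 over all genes. The difference between the ovx effects of the fractions passed for 0 of 9 member probes, and 0% of all probes passed it. At an unadjusted p under 0.05, 2 of the 9 passed that test, as did 952 of all probes. These are bulk samples, so fewer cells of a type and less RNA per cell cannot be told apart. With 2 samples a group an exact test alone could not go below p = 0.333, so each test rests on the spread that limma shares across probes and groups.

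**Figure D1:**
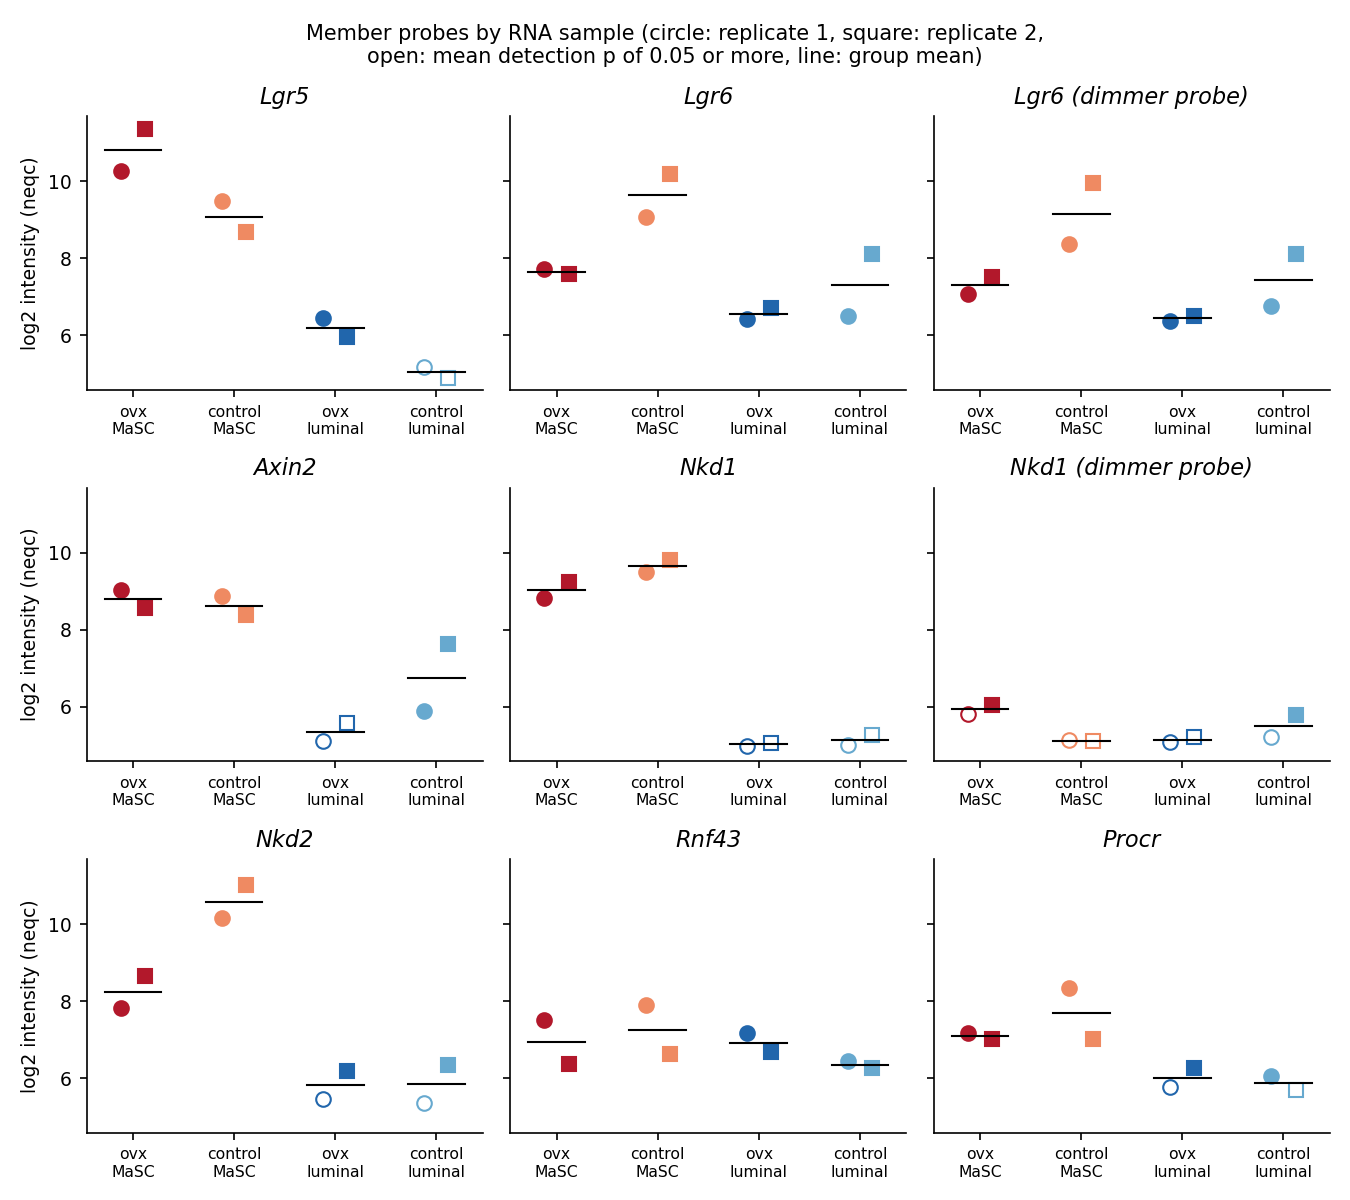
Log2 intensity (vertical axis) of each of the 9 tested member probes in the 4 groups (horizontal axis), ovx left of control within each fraction. Circles are replicate 1, squares replicate 2, open symbols samples with a mean detection p of 0.05 or more, and lines group means. Lgr5, the brighter Nkd1 probe and Nkd2 lie higher in all 4 MaSC-enriched samples than in any luminal sample, and Lgr6 and Nkd2 lie lower in ovx than in control MaSC-enriched samples.

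Among the receptors, Lgr5, an R-spondin receptor known as a stem cell marker in mouse intestine, gave the highest level in ovx MaSC-enriched cells. Its signal was 10.26 and 11.37 in ovx and 9.49 and 8.68 in control MaSC-enriched cells, and 6.46 and 5.95 in ovx and 5.18 and 4.91 in control luminal cells. The 4 groups stood in that order without overlap, and Lgr5 was detected on no control luminal array. In ovx mice Lgr5 was 24.4-fold higher in MaSC-enriched than in luminal cells (log2 4.61 ± 0.47 SE, limma adjusted p = 0.00182). In control mice it was at least 9.97-fold higher (log2 4.04 ± 0.47 SE, adjusted p = 0.00374, limma). For such a lower bound, arrays of the dimmer group were set to the lowest signal detected on the same array wherever they fell short of it. Both fraction differences passed within the second beadchip (5.18 in ovx and 3.75 in control mice), where each MaSC-enriched group is 1 sample assumed to vary like the others, and missed the threshold within the first, where they were 4.47 (adjusted p = 0.0714) and 3.82 (adjusted p = 0.0857).

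Between ovx and control mice, Lgr5 differed by 1.73 on the log2 scale in MaSC-enriched cells (95% interval 0.62 to 2.84, limma adjusted p = 0.330) and by 1.16 in luminal cells (0.05 to 2.27, adjusted p = 0.672). Both ovx samples lay above both control samples in each fraction, but neither difference passed. The difference between these ovx effects was 0.57 (-1.01 to 2.14) and did not pass either.

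Lgr6, a receptor of the same family that marks stem cells in mouse skin, ran the other way in MaSC-enriched cells. On its brighter probe it read 7.71 and 7.59 in ovx and 9.09 and 10.18 in control MaSC-enriched cells, and 6.43 and 6.70 in ovx and 6.51 and 8.12 in control luminal cells. Both ovx MaSC-enriched samples lay below both controls, while the luminal groups overlapped. Its dimmer probe gave 7.08 and 7.52 in ovx and 8.37 and 9.95 in control MaSC-enriched cells, and 6.37 and 6.52 in ovx and 6.77 and 8.13 in control luminal cells. On that probe the luminal groups did not overlap, and the control luminal mean (7.45) lay above the ovx MaSC-enriched mean (7.30), within the spread of the control luminal samples. The ovx difference in MaSC-enriched cells was -1.98 (95% interval -3.36 to -0.61, limma adjusted p = 0.369) on the brighter probe and -1.86 (-3.33 to -0.40, adjusted p = 0.436) on the dimmer, and neither passed. In luminal cells the brighter probe gave -0.75 (-2.13 to 0.62) and the dimmer -1.01 (-2.47 to 0.46).

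Between fractions, the brighter Lgr6 probe gave 1.09 in ovx mice (95% interval -0.28 to 2.46, limma adjusted p = 0.301) and 2.32 in control mice (0.94 to 3.69, adjusted p = 0.0504), just short of a call. The pools pair MaSC-enriched with luminal cells of the same mice, and with the pool as a block the control difference passed, at an adjusted p of 0.0154 for the brighter and 0.0273 for the dimmer probe. Lgr6 was highest in the control replicate 2 pool in both fractions, the pool with the high proliferation genes, whose part was not tested. With that pool left out, the ovx difference of the brighter probe in MaSC-enriched cells was -1.43. It then rests on the lone control replicate 1 sample, whose array stood apart.

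Lgr4, the remaining R-spondin receptor, was detected on none of the 12 arrays by its single probe (4.75 to 5.36). Another Lgr5 probe and another Lgr6 probe were detected on 1 array each, and the last Lgr6 probe on none. No difference was detectable for these at the sensitivity of the array, which is not the same as an absence of the transcript.

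Rnf43, the ubiquitin ligase that removes Frizzled and that R-spondins counteract, was detected on all 12 arrays and spanned 6.26 to 7.90 over the 8 samples. Its tested probe gave 7.52 and 6.37 in ovx and 7.90 and 6.63 in control MaSC-enriched cells, and 7.18 and 6.67 in ovx and 6.44 and 6.26 in control luminal cells. Replicate 1 read higher than replicate 2 in each of the 4 groups. The 7.90 came from the array of control MaSC-enriched replicate 1, which stood apart with a lowest detected signal of 7.29. The fraction differences were 0.02 in ovx mice (95% interval -1.25 to 1.30) and 0.91 in control mice (-0.36 to 2.19), and the ovx differences -0.32 in MaSC-enriched (-1.59 to 0.96) and 0.57 in luminal cells (-0.70 to 1.85). None passed, and the intervals allow a change of over 1 log2 unit. Without control MaSC-enriched replicate 1 the fraction difference in control mice was 0.28. A further Rnf43 probe was detected on no array.

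Of the feedback inhibitors, Axin2 is a scaffold of the destruction complex and Nkd1 and Nkd2 bind Dishevelled, and these 3 genes and Lgr5 are the members that passed between fractions. Axin2, Nkd1 and Nkd2 each passed as higher in MaSC-enriched cells of ovx mice, but in control mice Axin2 did not. The ovx differences of the 3 genes did not run together. Sequence around a transcription start of each gene is shown side by side. Each runs 5′ to 3′ on the gene's strand, from 200 bases before that start (lower case) to the first 20 bases from it (capitals), from RefSeq on GRCm38.p6. The table used holds 1 start for each of these genes. That of Nkd2 is the outer end of the annotated gene, while those of Axin2 and Nkd1 lie 2521 and 6291 bases inside the annotated gene span.
Axin2, chr11:108920149-108920368, plus strand: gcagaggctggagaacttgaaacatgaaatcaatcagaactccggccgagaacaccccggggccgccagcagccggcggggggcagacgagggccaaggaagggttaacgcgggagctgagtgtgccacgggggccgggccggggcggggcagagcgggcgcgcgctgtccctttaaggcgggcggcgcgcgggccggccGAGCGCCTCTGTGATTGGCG
Nkd1, chr8:88527433-88527652, plus strand: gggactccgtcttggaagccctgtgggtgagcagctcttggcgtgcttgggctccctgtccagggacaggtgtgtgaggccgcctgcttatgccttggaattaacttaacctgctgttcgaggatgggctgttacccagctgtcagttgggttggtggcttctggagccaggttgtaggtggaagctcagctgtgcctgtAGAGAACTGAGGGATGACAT
Nkd2, chr13:73847612-73847831, minus strand: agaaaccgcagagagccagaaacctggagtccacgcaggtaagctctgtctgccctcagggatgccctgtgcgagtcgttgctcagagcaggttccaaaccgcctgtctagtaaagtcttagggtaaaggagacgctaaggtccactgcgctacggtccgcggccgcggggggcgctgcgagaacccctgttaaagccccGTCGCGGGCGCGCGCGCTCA

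In the 300-base windows around those starts (250 bases before to 50 after), the GC content was 70.0% for Axin2, 58.3% for Nkd1 and 63.0% for Nkd2, beside a median of 52.7% over 32851 windows of RefSeq genes. CpG pairs numbered 31 in Axin2, 6 in Nkd1 and 26 in Nkd2, with a median of 7 over all windows. The core letters bound by TCF/LEF factors were searched as CTTTGA and CTTTGT and, on the other strand, TCAAAG and ACAAAG, which cannot overlap as whole words at the same base. None of the Axin2, Nkd1 and Nkd2 windows held one. Of 14 windows for 9 members, 1 window of Lef1 held matches, 3 in number, while 31.2% of all windows held at least 1. No match says only that these letters are not in this window.

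Axin2 read 9.04 and 8.57 in ovx and 8.87 and 8.38 in control MaSC-enriched cells, and 5.12 and 5.58 in ovx and 5.88 and 7.63 in control luminal cells. The MaSC-enriched groups overlapped, whereas both ovx luminal samples lay below both controls and were undetected on all 3 arrays. In ovx mice Axin2 was at least 8.10-fold higher in MaSC-enriched than in luminal cells (log2 3.46 ± 0.57 SE, limma adjusted p = 0.00997). The 95% interval of that log2 difference, 2.11 to 4.80, reaches below the bound, which leaves out the spread of samples. The call was lost when any 1 of the 4 ovx samples was left out (adjusted p 0.0508 to 0.0955), with a log2 difference of 3.22 to 3.69. In control mice the difference of 1.87 did not pass (95% interval 0.52 to 3.22, adjusted p = 0.0878, limma).

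The 2 fraction differences of Axin2 were not shown to differ from each other, since the test of that difference gave 1.59 (-0.32 to 3.49) and did not pass. In luminal cells the ovx difference was -1.41 (95% interval -2.75 to -0.06, limma adjusted p = 0.672), and in MaSC-enriched cells 0.18 (-1.16 to 1.53). The control luminal replicate 2 sample, at 7.63, stood above its partner at 5.88, and without that pool the difference was -0.53. The basal keratin Krt14 read 9.43 and 10.85 in ovx and 11.75 and 12.90 in control luminal cells, highest in that sample too. Other basal markers were not uniform between control luminal replicates 1 and 2. Krt5 read 5.41 and 6.58 there, Trp63 6.47 and 6.56, and Acta2 12.36 and 12.36. Whether basal RNA has a part in the Axin2 levels was not tested.

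Nkd1 was the member that separated the fractions with the smallest p. On its brighter probe it read 8.83 and 9.25 in ovx and 9.49 and 9.80 in control MaSC-enriched cells, and 4.99 and 5.06 in ovx and 4.997 and 5.27 in control luminal cells. It was detected on all 6 MaSC-enriched arrays and on no luminal array. That probe thus entered the test through its MaSC-enriched samples alone, and both p-values below rest on luminal signal not above background. MaSC-enriched cells had at least 9.53-fold more Nkd1 in ovx mice (log2 4.01 ± 0.31 SE, limma adjusted p = 0.000714) and at least 14.7-fold more in control mice (log2 4.51 ± 0.31 SE, adjusted p = 0.000592). Both calls were kept within each beadchip (3.97 and 4.24 in ovx mice, 4.68 and 4.71 in control mice), where 1 fraction of each pair is a single sample, and with any 1 sample left out.

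In MaSC-enriched cells both ovx samples lay below both controls for that probe, by -0.61 (95% interval -1.34 to 0.12, limma adjusted p = 0.656), and in luminal cells the difference was -0.11 (-0.84 to 0.62). A dimmer Nkd1 probe was detected on 2 of 12 arrays and disagreed with the brighter one. It read 5.80 and 6.06 in ovx and 5.13 and 5.11 in control MaSC-enriched cells, and 5.08 and 5.21 in ovx and 5.23 and 5.80 in control luminal cells. Its differences between fractions (0.79 in ovx and -0.39 in control mice) and with ovx (0.81 in MaSC-enriched and -0.37 in luminal cells) did not pass.

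Nkd2 had its highest level in control MaSC-enriched cells. It read 7.81 and 8.66 in ovx and 10.15 and 11.01 in control MaSC-enriched cells, and 5.46 and 6.18 in ovx and 5.36 and 6.34 in control luminal cells. The 2 MaSC-enriched groups did not overlap each other or the luminal groups, while the luminal groups overlapped and were detected on 1 of 3 arrays each, that of replicate 2. Nkd2 was 5.35-fold higher in MaSC-enriched than in luminal cells of ovx mice (log2 2.42 ± 0.53 SE, limma adjusted p = 0.0264) and 26.5-fold higher in control mice (log2 4.73 ± 0.53 SE, adjusted p = 0.00323). Both folds rest in part on luminal signals not above background. The call in ovx mice was lost when any 1 of the 4 ovx samples was left out (adjusted p 0.0574 to 0.202), and that in control mice was kept with any 1 sample left out. Within the first beadchip both missed the threshold, with 2.75 (adjusted p = 0.140) in ovx and 5.46 (adjusted p = 0.0502) in control mice.

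The ovx difference of Nkd2 in MaSC-enriched cells was -2.34 (95% interval -3.58 to -1.11, limma adjusted p = 0.221). By p it stood 256th among the 20995 probes, the first of the members, and it did not pass. In luminal cells it was -0.03 (-1.27 to 1.20). The difference between these effects, -2.31 (-4.06 to -0.57), had an adjusted p of 0.822.

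**Figure D2:**
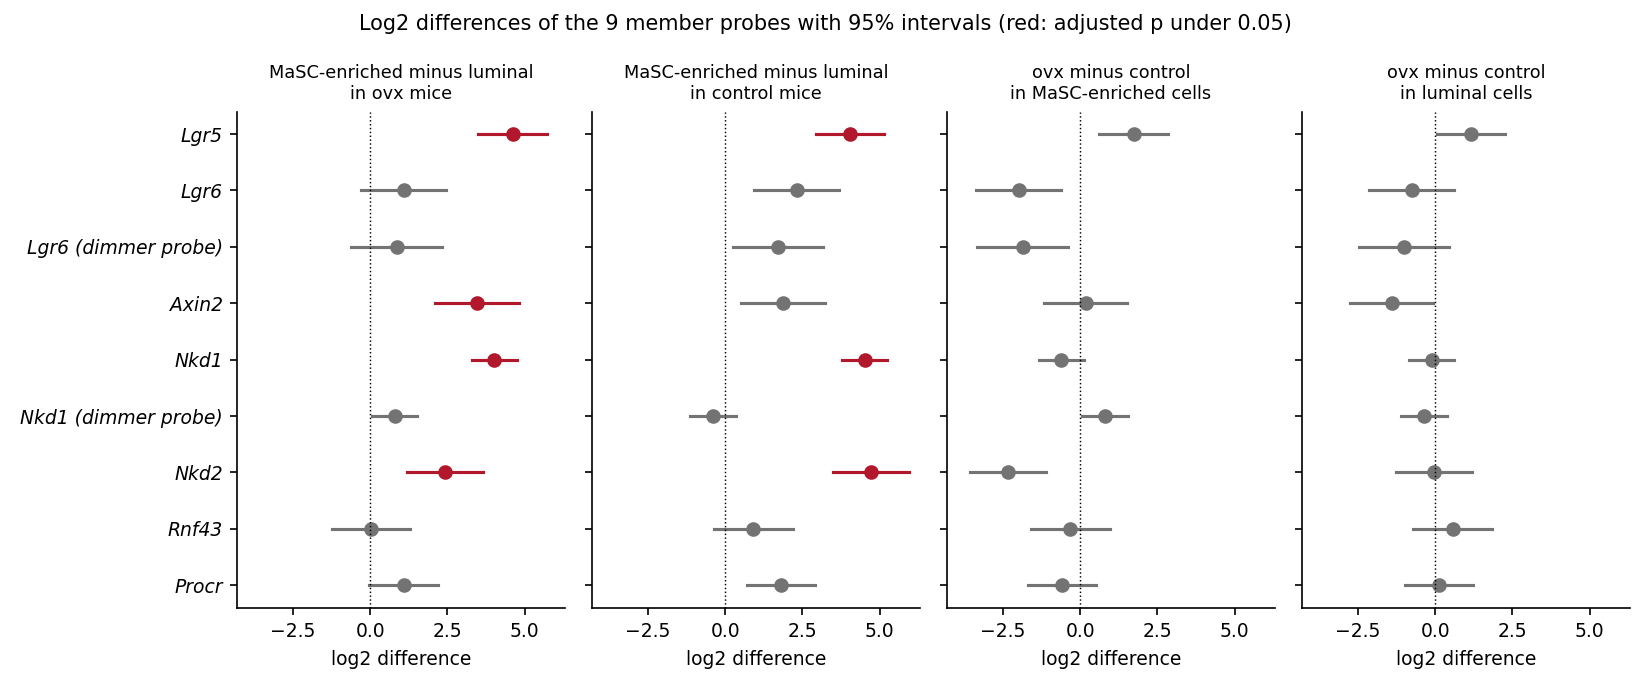
Log2 differences (horizontal axis) of the 9 member probes (rows) in 4 comparisons, with 95% intervals from the limma fit. Red points have an adjusted p under 0.05. The red points are Lgr5, Axin2, Nkd1 and Nkd2 between fractions in ovx mice and Lgr5, Nkd1 and Nkd2 in control mice, and no point is red between ovx and control mice.

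The transcription factors gave no measurable values. Lef1, which carries beta-catenin to its target genes and is itself a target in many tissues, was detected by none of its 4 probes on any of the 12 arrays (4.69 to 5.25). Tcf7, a factor of the same family, could not be followed for want of an annotated probe.

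Procr, the endothelial protein C receptor, is carried by endothelial cells and has been described as a marker of a mouse mammary stem cell population. It read 7.18 and 7.01 in ovx and 8.35 and 7.02 in control MaSC-enriched cells, and 5.76 and 6.26 in ovx and 6.06 and 5.70 in control luminal cells. All 4 MaSC-enriched samples lay above all luminal samples, while ovx and control samples overlapped in both fractions. The fraction difference was 1.08 in ovx mice (95% interval -0.03 to 2.19, limma adjusted p = 0.202) and 1.80 in control mice (0.69 to 2.91, adjusted p = 0.0566), and neither passed. With the pool as a block the control difference had an adjusted p of 0.0448. It was 1.14 (adjusted p = 0.135, limma) without control MaSC-enriched replicate 1, whose array stood apart, and 2.47 (adjusted p = 0.00698) without replicate 2. The ovx difference was -0.59 (-1.70 to 0.52) in MaSC-enriched and 0.13 (-0.98 to 1.24) in luminal cells. A further Procr probe was detected on no array.

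Endothelial genes moved between the fractions in the same direction as Procr. Of 12 endothelial genes on the array, 11 were detected in every sample, and 7 of the 11 tested passed as higher in MaSC-enriched cells in each of the comparisons. Their mean log2 level was 11.79 and 10.33 in ovx and 11.09 and 10.02 in control MaSC-enriched cells, and 8.88 and 9.25 in ovx and 8.37 and 8.34 in control luminal cells. Their summed linear level was 18764 to 50535 and 15227 to 33574 in those MaSC-enriched groups, and 6668 to 8667 and 4751 to 5482 in the luminal groups. Their part in the Procr values was not tested.

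Markers of further cell types also differed between the groups. Skeletal muscle genes had a mean log2 level of 9.35 to 10.03 in ovx and 5.91 to 6.64 in control luminal samples, and of 5.94 to 6.65 in ovx and 5.79 to 6.45 in control MaSC-enriched samples. Their summed linear level was 12405 to 22166 in ovx and 647 to 1583 in control luminal samples. Of 9 tested, 3 passed as higher in ovx than in control luminal cells (Ckm, Pgam2 and Myh4, list median 3.51), and 8 passed as lower in MaSC-enriched than in luminal cells of ovx mice. Adipocyte genes averaged 8.73 to 9.12 in ovx and 6.81 to 6.92 in control MaSC-enriched samples, and 6.32 to 6.75 in ovx and 5.58 to 5.90 in control luminal samples. Of 4 tested, 1 passed between ovx and control MaSC-enriched cells, the leptin gene Lep (at least 15.7-fold higher in ovx cells, limma adjusted p = 0.0226), 3 passed as higher in MaSC-enriched cells of ovx mice and 1 in control mice.

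Immune genes averaged 7.82 to 8.47 in ovx and 7.08 to 7.51 in control MaSC-enriched samples, and 6.02 to 6.95 in ovx and 6.24 to 6.99 in control luminal samples. Ptprc, which encodes the CD45 antigen used to remove immune cells, was detected on no array, while the T cell gene Cd3e read 6.86 and 7.09 in ovx and 5.55 and 6.99 in control MaSC-enriched cells. All 5 tested immune genes had higher means in ovx than in control MaSC-enriched cells (median 0.75), none of which passed, and 1 of 5, Lyz2, passed as higher in MaSC-enriched than in luminal cells of ovx mice. Of the basal list, 13 of 13 passed as higher in MaSC-enriched cells of ovx mice and 11 of 13 of control mice, and of the luminal list 8 of 14 and 6 of 14 passed as lower. Of 10 fibroblast genes 2 passed as higher in MaSC-enriched cells of ovx and 1 of control mice, and of 9 pericyte genes 5 and 3. Of 4 Schwann cell genes 2 passed as higher and 1 as lower in each, and of 3 red blood cell genes 1 passed as lower in ovx mice. Between ovx and control mice no gene of these last 6 lists and none of the 13 proliferation genes passed, with median differences of the proliferation genes of -2.28 in MaSC-enriched and -2.56 in luminal cells. The control replicate 2 pool was the highest in both fractions. Mean log2 levels of the proliferation genes were 7.18 and 10.73 in control and 6.86 to 7.19 in ovx MaSC-enriched samples. In luminal samples they were 8.20 and 11.07 in control and 7.06 to 7.37 in ovx mice. The part of any of these lists in the member values was not tested.

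With the pool as a replicate block, 4 of 9 member probes passed between fractions in ovx mice and 6 of 9 in control mice, there Lgr5, both Lgr6 probes, Nkd1, Nkd2 and Procr, where 13.1% and 10.1% of all probes passed. With the control replicate 2 pool left out, 5 of 9 passed in ovx mice and 7 of 9 in control mice, where calls over all probes were also more frequent (20.7% and 21.6%), with the lone control sample of each fraction assumed to vary like the other groups. In control mice Axin2 was then among those that passed, at a log2 difference of 2.98 (adjusted p = 0.0136, limma). Single samples moved the fraction differences of control mice both ways. The brighter Lgr6 probe gave 2.87 without control MaSC-enriched replicate 1 (adjusted p = 0.0405, limma) and 3.12 without control luminal replicate 2 (adjusted p = 0.0284), but 1.51 without control luminal replicate 1 (adjusted p = 0.219). The dimmer Lgr6 probe gave 2.50 without control MaSC-enriched replicate 1 (adjusted p = 0.0456, limma), but 0.92 without replicate 2 of that group (adjusted p = 0.258) and 1.03 without control luminal replicate 1 (adjusted p = 0.468). Axin2 gave 2.74 without control luminal replicate 2 (adjusted p = 0.0250, limma), but 1.00 without control luminal replicate 1 (adjusted p = 0.321). With the beadchip as a block 4 of 9 passed in ovx mice and 6 of 9 in control mice (14.3% and 12.1% of all probes), while within the first beadchip alone, where each luminal group is 1 sample, 1 of 9 passed in each, Nkd1 (1.25% and 0.862% of all probes).

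**Figure D3:**
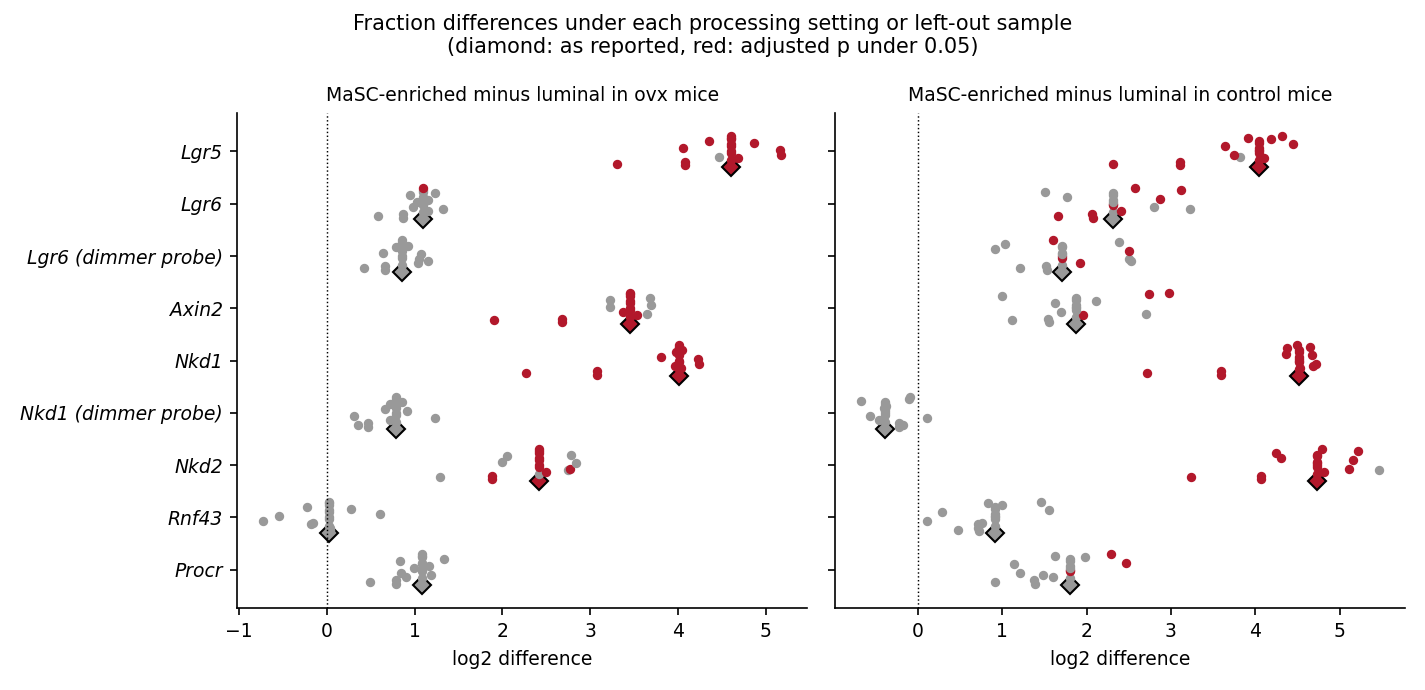
Log2 difference between MaSC-enriched and luminal cells (horizontal axis) of the 9 member probes (rows) in ovx and control mice, with 1 point for each processing setting or left-out sample. Diamonds are the values reported in the text, and red marks an adjusted p under 0.05. The points of Lgr5, Axin2, the brighter Nkd1 probe and Nkd2 all lie above 0, and those of Rnf43 in ovx mice lie on both sides of 0.

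Other genes of the pathway were read from 7 lists. Over all probes, 12.4% passed between fractions in ovx mice and 10.1% in control mice, in either direction. Among Wnt ligands, 8 of 19 were tested, and in ovx mice 3 passed higher and 2 lower in MaSC-enriched cells, in control mice 2 and 2. Wnt10a averaged 9.68 in MaSC-enriched and 5.25 in luminal cells of ovx mice (at least 14.9-fold, limma adjusted p = 0.00394), and 11.25 in MaSC-enriched and 5.79 in luminal cells of control mice (log2 5.46, adjusted p = 0.00249). Wnt6 was higher in MaSC-enriched cells by 2.85 in ovx and 4.37 in control mice, and Wnt11 by 1.52 in ovx mice. The ligands lower in MaSC-enriched cells were Wnt4, a progesterone target in luminal cells that is also in the luminal marker list, by -3.73 in ovx and -4.21 in control mice, and Wnt7b, by -3.26 and -4.10.

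Secreted and surface inhibitors had 8 of 16 genes tested, of which 4 passed in ovx mice and 6 in control mice, all higher in MaSC-enriched cells. Wif1, which binds Wnt proteins outside the cell, was higher by 6.37 in ovx and 5.89 in control mice, Dkk3, a Dickkopf family protein, by 7.44 and 4.84, and Sfrp1, a secreted Frizzled-related protein, by 4.84 and 3.62. Apcdd1 passed in ovx mice (3.02). Sostdc1 (5.04), Kremen1 (2.19) and Sfrp2 (1.87) passed in control mice. The median difference over the 8 genes was 2.17 in ovx and 2.90 in control mice.

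Of 13 tested receptors and co-receptors, 3 passed higher and 1 lower in MaSC-enriched cells of ovx mice, and 1 passed higher in control mice. Fzd7, a Frizzled receptor, was higher by 3.58 in ovx and 2.57 in control mice. Fzd2 (2.36) and Fzd8 (1.97) were higher and Fzd10 (-3.87) lower in MaSC-enriched cells of ovx mice. Among 10 TCF factors and cofactors, Tcf7l1 (3.62) and Pygo1 (1.32) passed in ovx mice and the corepressor Tle1 (1.80) in control mice, all higher in MaSC-enriched cells. Of 13 further beta-catenin target genes, Ccnd1, which encodes cyclin D1, was lower in MaSC-enriched cells of ovx mice (-2.06), and Cd44 (2.17) and Ccn4 (3.99) were higher in MaSC-enriched cells of control mice. The counts of the TCF and further target lists, and that of the receptors in control mice, lie near the share of all probes that passed. The destruction complex list had 0 of 10 tested genes past the threshold in either comparison, and its smallest p-values in limma were those of the kinase Csnk1e (-1.12 in ovx and -0.97 in control mice) and the scaffold Apc (-1.11 and -1.24).

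**Figure D4:**
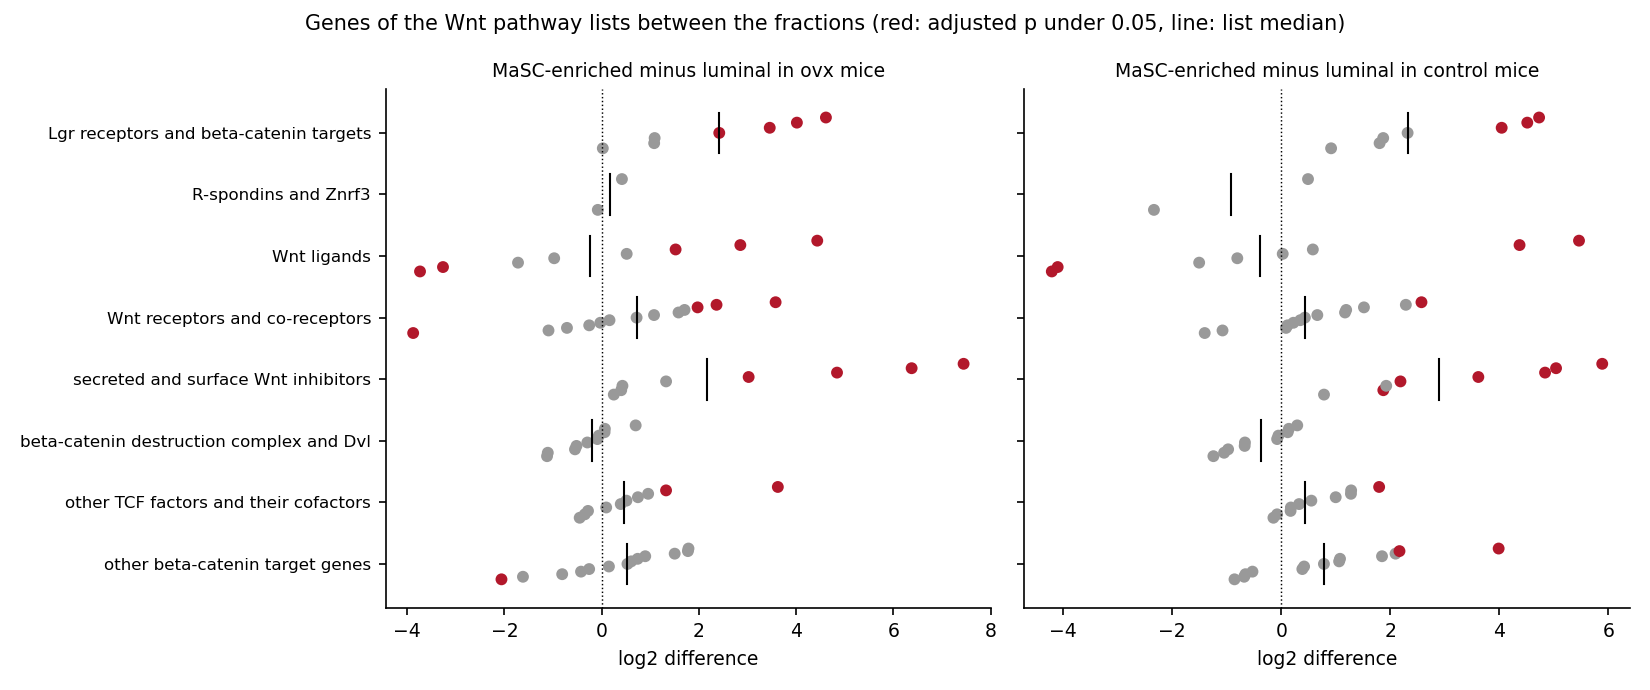
Log2 difference between MaSC-enriched and luminal cells (horizontal axis) of each tested gene (point) of the members and of 7 Wnt pathway lists (rows), in ovx and control mice. Red points have an adjusted p under 0.05 and lines are list medians. The list medians of the members and of the Wnt inhibitors lie between 2.17 and 2.90, and the destruction complex list has no red point.

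Between ovx and control mice 0 genes of the 7 lists passed in either fraction. R-spondins, the ligands of the Lgr receptors, were represented by Rspo1 and Rspo3. Rspo1 averaged 5.14 in ovx and 8.36 in control luminal cells, a difference of -3.22 that did not pass (limma adjusted p = 0.245). Those means lay at least 5.93-fold apart with signal below detection set to the lowest detected, leaving out the spread of samples. In MaSC-enriched cells Rspo1 averaged 5.06 in ovx and 6.02 in control mice. Rspo3 differed by -0.42 in luminal and -0.50 in MaSC-enriched cells. The smallest p-values of the inhibitors in MaSC-enriched cells were those of Sfrp1 (13.42 in ovx and 10.84 in control cells, adjusted p = 0.164, limma) and Sostdc1 (8.02 and 10.70, adjusted p = 0.243). Cd44, at 12.26 in ovx and 10.04 in control luminal cells, came closest to the threshold there (log2 2.22, adjusted p = 0.0658, limma). Ccn4, a Wnt-induced secreted protein, had 7.33 in ovx and 10.497 in control MaSC-enriched cells (adjusted p = 0.206, limma).

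For each member that passed, the 2 genes with the most similar profile over the 8 samples were taken by Pearson correlation, as a description. The samples fall into 2 fractions that lie far apart, so these coefficients follow the fraction difference that the genes share. Lgr5 was closest to Prss23 (r = 0.990) and Jam2 (0.990), and Axin2 to Gsta4 (0.994) and Pard6g (0.986). Nkd1 was closest to the transcription factor gene Bcl11b (0.999) and to Aldh1l2 (0.997). Nkd2 was closest to the glutamate transporter gene Slc1a3 (0.991) and to Piwil2 (0.990).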

How the data were processed

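Each of 12 arrays has, per the file headers of the deposited raw table, 45281 probes with a summarised bead intensity and its detection p-value. The authors' deposited series table holds log2 values of the same arrays with medians of 6.22 to 6.23, and its normalization steps are not given in the sources used here. BeadStudio and limma are named in the submitters' processing notes. The intensity values were corrected, quantile normalized and log2 transformed by neqc of limma 3.58.1, run under R 4.3.3 (offset 16, negative control parameters inferred from detection p-values). Arrays of the same RNA were averaged. A detection p averaging under 0.05 in at least 2 of 8 samples kept 20995 probes (46.4%), and the brightest kept probe stands for a gene. Symbols came from the platform annotation, where 34885 probes had 1 symbol, 18 several and 10378 none.

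A limma model of 4 group means (4 residual and 3.22 prior degrees of freedom) gave two-sided tests, adjusted by Benjamini-Hochberg at 0.05. The code was run on simulated data with independent noise of the fitted spread. Those data held no pool, beadchip or background effects, so the run cannot check the model against them. In the measured data the spread covers mouse pools only, and the number of samples limits the precision. MaSC-enriched and luminal samples pair by mouse pool per the labels, and their deviations from group means correlated at 0.135 (ovx) and 0.367 (control), so the pool served as a block in an alternative. Ovx and control samples of the same number came from different mouse pools, but within each fraction they were run on the same beadchips. The first beadchip held every MaSC-enriched RNA and replicate 1 of the luminal groups, the second every luminal RNA and replicate 2 of the MaSC-enriched groups. The named genes are all members, the pathway genes past the threshold or else of smallest p, and the 2 most correlated genes of each member that passed. Marker lists for basal, luminal, immune, endothelial and other cells were read beside them. Members and lists were chosen with earlier results of these data known.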

Additional observations from a re-analysis of the deposited data

Results flagged for a closer look

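The dimmer Nkd1 probe drew attention because both ovx samples lay above both controls in MaSC-enriched cells and both lay below them in luminal cells. The difference between the ovx effects was 1.18 on the log2 scale (95% interval 0.13 to 2.23), and the limma test of it did not pass (adjusted p = 0.957). That probe was detected on 2 of 12 arrays, the 2 arrays of the RNA of ovx MaSC-enriched replicate 2 read 6.61 and 5.50 on it, and the brighter Nkd1 probe gave -0.50 for the same quantity (-1.53 to 0.53).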

How the results depend on the processing

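Of the member values recomputed under other settings, 737 kept their direction and side of the threshold, 23 newly passed, 15 no longer passed and 27 turned direction, none of the 27 a called difference. The number of member probes past the threshold between fractions in ovx mice was 4 as reported, 1 within the first beadchip, 3 without background correction or without the detection filter, 5 without the control replicate 2 pool, and 2 to 4 with 1 sample left out. In control mice it was 3 as reported, 4 with an offset of 50, without background correction and from the deposited normalized table, 6 with the beadchip as a block, 6 with the replicate block by pool or by replicate number, 1 within the first beadchip, 7 without that pool, and 3 to 5 with 1 sample left out. Between ovx and control MaSC-enriched cells it was 0, and 1 with the replicate block by replicate number (Nkd2, -2.34, limma adjusted p = 0.0474). Ovx and control samples of the same number shared no mouse pool but, within each fraction, were run on the same beadchips. Their deviations from group means correlated at 0.587 in MaSC-enriched and 0.279 in luminal cells. The part of the beadchips in this was not tested. In luminal cells and for the difference of effects it was 0 under every setting run. The block by replicate number changed no other ovx call of a member probe. Over all probes it raised the ovx calls from 16 to 36 (0.171%) in MaSC-enriched and from 33 to 52 (0.248%) in luminal cells.

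Without background correction Nkd2 no longer passed in ovx mice (1.29, adjusted p = 0.0537), nor without the detection filter (adjusted p = 0.0698), and Nkd1 gave 2.27 in ovx and 2.71 in control mice, Lgr5 3.30 and 2.31, and Axin2 1.91 in ovx mice, so the lower bounds on folds apply to the values as reported only. Axin2 between ovx and control MaSC-enriched cells turned to -0.060 without the control replicate 2 pool and ranged from -0.060 to 0.42 with 1 sample left out, while Rnf43 ranged from -0.95 to 0.32 and Procr from -1.26 to 0.075. In luminal cells, Nkd1 gave 0.16, Nkd2 0.48 and Procr -0.16 within the first beadchip, and Lgr6 0.051, Nkd1 0.028, Nkd2 0.46 and Procr -0.046 without the control replicate 2 pool. With 1 sample left out there, Lgr6 ranged from -1.56 to 0.051, Nkd1 from -0.24 to 0.028, Nkd2 from -0.52 to 0.46 and Procr from -0.12 to 0.38. Between fractions, Rnf43 in ovx mice gave -0.18 with the beadchip as a block, -0.16 and -0.73 within the beadchips, and -0.55 to 0.60 with 1 sample left out, and the dimmer Nkd1 probe gave 0.10 within the first beadchip in control mice. The mean over both Nkd1 probes gave 0.10 between ovx and control MaSC-enriched cells and 0.34 for the difference of effects. The causes were not tested. Signal over background limits Lgr4, Lef1 and the luminal levels of Nkd1, Lgr5 and Axin2, where fitted differences depend on the offset.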
